A study of Mus musculus with 6 samples.

Results

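The amino acid starvation response and the serine synthesis pathway are represented here by 10 genes: Atf4, Atf5, Ddit3, Trib3, Chac1, Sesn2, Asns, Phgdh, Psat1 and Psph. They were chosen by gene symbol as the ATF4 branch with asparagine and serine synthesis, and all 10 were found among the 18493 genes of the deposited table. RNA was sequenced from CD4+CD25+YFP+ regulatory T (Treg) cells, sorted from spleen and lymph node of female C57BL/6 mice aged 7 weeks. The tested mice (cKO, 3 libraries) were Foxp3cre/+ TKTfl/fl, in which the Foxp3-driven Cre deletes floxed transketolase alleles in Treg cells. The controls (WT, 3 libraries) were Foxp3cre/+, so both groups carried the Cre allele and the YFP used for the sort. Foxp3 is X-linked, and the study calls these females chimeric. The sort takes the YFP+ cells. Transketolase is an enzyme of the non-oxidative pentose phosphate pathway, and the question of the study was the role of that pathway in Treg cells.

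When amino acids run short, the kinase GCN2 phosphorylates the translation factor eIF2alpha. General protein synthesis then slows while the messenger RNA of the transcription factor ATF4 is translated more, so Atf4 mRNA measures the template and not the active protein. ATF4 raises genes that make or import amino acids, among them Asns and the serine synthesis enzymes, and activated T cells draw on asparagine and serine for growth.

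The libraries held 17180577 to 18215168 estimated reads. Values are CPM, counts scaled to library size, unless FPKM, which is also per gene length, is named, and fold changes come from edgeR's quasi-likelihood test over 12887 genes. Tkt stood at 52.5, 44.8 and 31.9 CPM in the cKO libraries, against 126, 97.1 and 121 CPM in the WT libraries, and just missed the threshold in edgeR's test (adjusted p = 0.0516). Libraries cKO1 and WT2 stood apart in a principal component analysis. On the first component, with 36.1% of the variance, cKO1 scored 33.2 and WT2 25.4, and cKO2 followed at 8.11. The other 3 libraries lay from -25.9 to -18.4. The Treg markers Foxp3, Il2ra, Ctla4, Ikzf2, Cd3e, Cd4 and Tnfrsf18 were present in every library, with a summed level of 3895 to 4192 CPM in cKO and 4326 to 4743 CPM in WT, so the sums did not overlap. None of the 7 was called. Ctla4 averaged 736 CPM in cKO and 1096 CPM in WT, with WT2 at 1727 CPM, and Ikzf2 averaged 581 and 670 CPM. Cd4 (792 and 858 CPM) and Tnfrsf18 (135 and 145 CPM) were also lower in cKO on average. Foxp3 (620 and 598 CPM), Il2ra (757 and 755 CPM) and Cd3e (402 and 385 CPM) were not. The design text counts 3 mice in each group, as many as libraries, without tying a library to a mouse. Each p-value rests on the spread among the libraries within the groups, which the fit moderates over all tested genes.

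None of the 9 genes that could be tested passed the test for a difference between cKO and WT cells. Asns, which encodes asparagine synthetase, had the largest difference, at a fitted 0.578 of the WT level, and was lower in each of the 3 cKO libraries than in any WT library (adjusted p = 0.366, edgeR). Atf4 itself, Trib3, Phgdh and Psph had fitted log2 fold changes between -0.01 and 0.03. Of all tested genes, 0.202% were called lower and 0.00776% higher in cKO cells at an adjusted p under 0.05, so no call among 9 tested genes is near what the whole table gives. DESeq2 and limma-voom called none of the 9 either. At an unadjusted p under 0.05, 1 of the 9 passed in edgeR's test, Asns, against 7.69% of all tested genes. The median log2 fold change was -0.17 over the 9 genes and 0.004 over all genes. Chac1 did not pass the filter on low counts and was not tested.

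**Figure D1:**
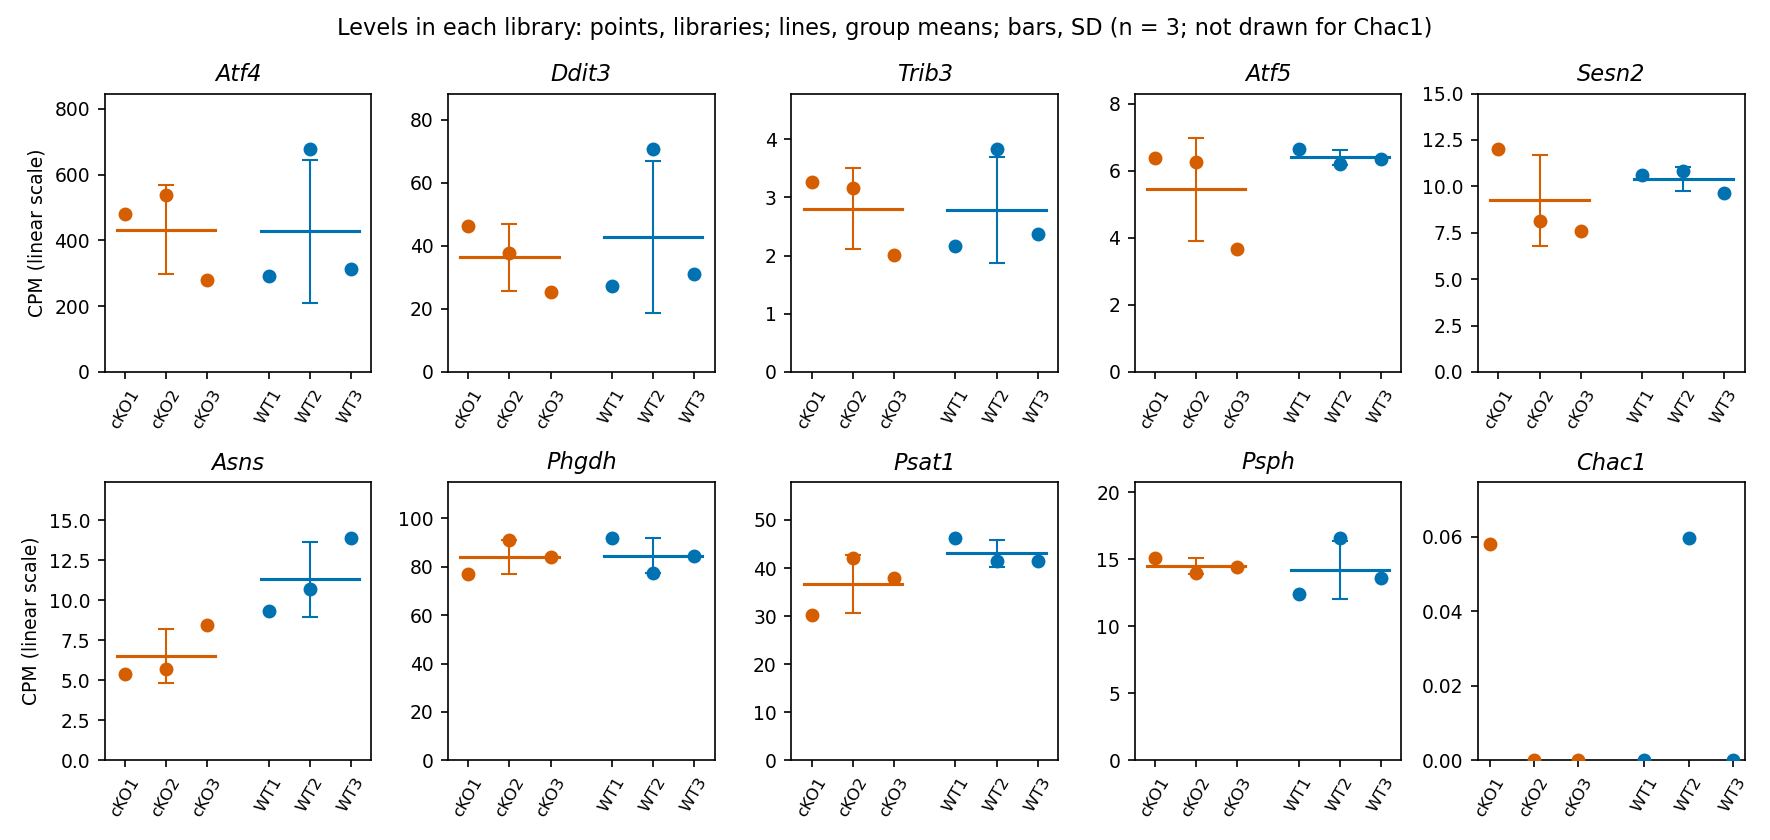
CPM of each of the 10 genes (vertical axes, linear, starting at 0) in the 3 cKO (orange) and 3 WT (blue) libraries, with lines at the group means and bars of SD (n = 3), which are not drawn for Chac1. Asns is the gene whose groups do not overlap, while Atf4, Ddit3 and Trib3 each have their highest value in WT2.

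The transcription factor Atf4 was by far the most abundant of the 10 genes and varied more within each group than between the groups. It stood at 479, 537 and 279 CPM in the cKO libraries, against 291, 677 and 314 CPM in the WT libraries. The groups overlapped fully, with WT2 highest, cKO2 and cKO1 next, and cKO3 lowest. The highest WT library exceeded the lowest 2.33-fold and the highest cKO library exceeded the lowest 1.92-fold, while the fitted fold change was 1.01 (95% interval 0.554 to 1.84). The log2 fold change was 0.01 ± 0.37 (SE), with an adjusted p of 0.9995 in edgeR's test. That interval, taken before adjustment over all genes, gives the changes of Atf4 mRNA that these libraries do not exclude. It is not a limit of detection, and a larger change could also be missed. Without WT2 and cKO1 the log2 fold change was 0.43 (adjusted p = 0.638, edgeR), and without WT2 alone it was 0.51 (adjusted p = 0.56).

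Ddit3 encodes CHOP, a transcription factor of prolonged stress that ATF4 induces. Its level was 46.3, 37.6 and 25.2 CPM in the cKO libraries, against 27.1, 70.6 and 31.1 CPM in the WT libraries. WT2 was again the highest and cKO3 the lowest, and WT2 exceeded the mean of the other WT libraries 2.43-fold. The log2 fold change of -0.24 ± 0.39 (SE; adjusted p = 0.968, edgeR) took the opposite sign without WT2 and cKO1 (0.11) and without WT2 alone (0.32). Ddit3 overlaps Mbd6 and Mars1 in the RefSeq annotation, and its estimated counts were not whole in any of the 6 libraries, so its level is uncertain. Atf5, a relative of ATF4 that is also controlled at translation and acts in mitochondrial stress, was low at 6.4, 6.27 and 3.68 CPM in the cKO libraries, against 6.65, 6.22 and 6.36 CPM in the WT libraries. Its 3 WT libraries agreed within 1.07-fold, and cKO3 alone lay below the others (log2 fold change -0.24 ± 0.23 SE, adjusted p = 0.918, edgeR). The count behind the cKO3 value was 66 reads, with an exact 95% Poisson interval of 2.84 to 4.68 CPM that covers counting error only. Without cKO replicate 3, the Atf5 log2 fold change was -0.02.

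Trib3, a pseudokinase that ATF4 and CHOP induce and that feeds back on ATF4, had groups that overlapped fully. It stood at 3.26, 3.16 and 2.01 CPM in the cKO libraries, against 2.16, 3.83 and 2.37 CPM in the WT libraries (log2 fold change 0.01 ± 0.31 SE, adjusted p = 0.9995, edgeR). Trib3 and Ddit3 ranked the 6 libraries in the same order, WT2, cKO1, cKO2, WT3, WT1 and cKO3 from high to low. Atf4 gave the same order apart from an exchange of cKO1 and cKO2. Trib3 rests on 36 to 64 reads per library. Its exact 95% Poisson intervals overlap between libraries next to each other in the order, so counting error leaves its exact order unresolved. The order of Tnfaip3, an NF-kappaB feedback inhibitor, matched that of Ddit3 and Trib3, with 4612, 2332 and 1152 CPM in the cKO libraries, against 2060, 4898 and 2195 CPM in the WT libraries. Ppp1r15a, a regulatory subunit of the phosphatase that dephosphorylates eIF2alpha, matched the order of Atf4, with 1477, 1558 and 742 CPM in cKO, against 870, 1650 and 922 CPM in WT. Both genes were set beside the 10 after their values had been seen. The part of the library state in these levels was not tested.

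**Figure D2:**
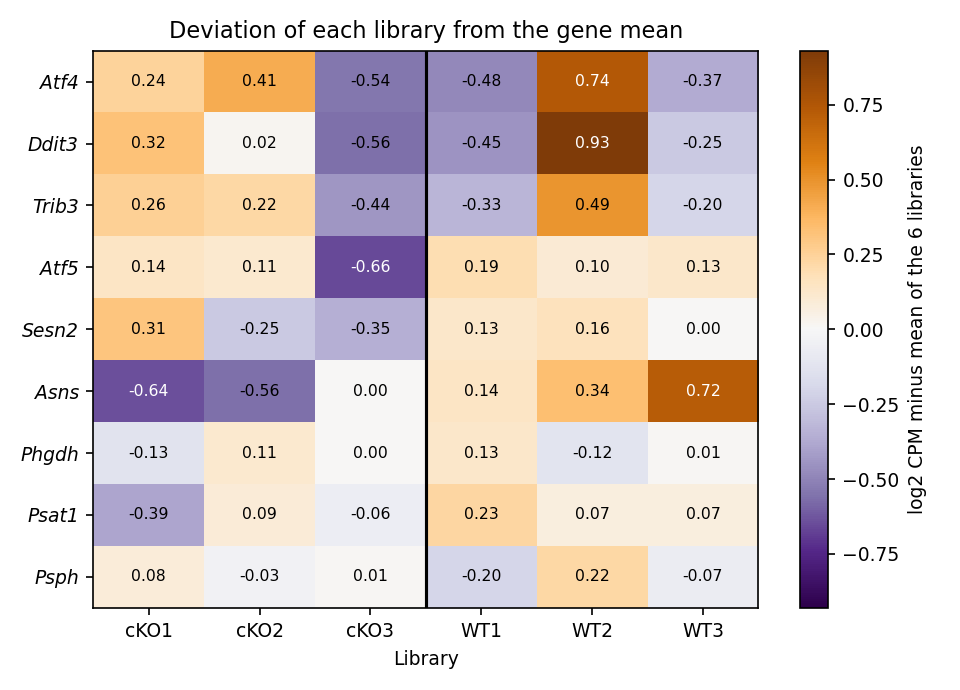
Log2 CPM of the 9 tested genes minus the gene's mean over the 6 libraries, with cKO libraries left of the black line and WT libraries right of it. Atf4, Ddit3 and Trib3 are above their means in cKO1, cKO2 and WT2 and below them in cKO3, WT1 and WT3, whereas Asns is at -0.64, -0.56 and 0.00 in the cKO libraries and at 0.14, 0.34 and 0.72 in the WT libraries.

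Chac1 encodes a glutathione-degrading enzyme and is among the strongest ATF4 targets, and it was close to undetected. The table holds 1 read in cKO1 and 1 in WT2 and none in the other libraries. A count of 0 allows up to 0.164 to 0.169 CPM in these 4 libraries (3 reads each). No fold change can be given. Sesn2, a sestrin that senses leucine and restrains the growth kinase mTORC1, stood at 12.0, 8.12 and 7.57 CPM in the cKO libraries, against 10.6, 10.8 and 9.63 CPM in the WT libraries. Its cKO values spread above and below the WT range, and the log2 fold change was -0.17 ± 0.19 (SE; adjusted p = 0.934, edgeR). Without WT2 and cKO1 it was -0.37 (adjusted p = 0.426).

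Asns stood at 5.41, 5.72 and 8.47 CPM in the cKO libraries, against 9.32, 10.7 and 13.9 CPM in the WT libraries. The groups did not overlap. Of all tested genes, 8.12% had all cKO libraries below all WT libraries and 6.1% had them above. The group means were 6.53 ± 1.68 CPM in cKO and 11.3 ± 2.36 CPM in WT (SD, n = 3 each). The log2 fold change was -0.79 ± 0.23 (SE; 95% interval -1.33 to -0.25; edgeR), with an unadjusted p of 0.01, and 2.73% of all tested genes had a lower p. The adjusted p was 0.366, so the difference did not pass.

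The nearest libraries of the 2 groups, cKO3 and WT1, rested on 152 and 168 reads of Asns. Their exact 95% Poisson intervals were 7.17 to 9.92 CPM and 7.96 to 10.8 CPM, which overlap, so these libraries differ by less than counting error. The Asns log2 fold change stayed negative when any library was left out, from -1.02 to -0.61. It was -0.71 without WT2 and cKO1 (adjusted p = 0.412). DESeq2 gave the lowest adjusted p of the alternatives, 0.166. The Asns values thus did not follow the library order of Atf4: cKO1 and cKO2, which with WT2 were the highest in Atf4 and Ddit3, were the lowest in Asns. The summed level of 20 proliferation genes was 543, 756 and 648 CPM in cKO, against 827, 903 and 618 CPM in WT, so the sums overlapped. Of these 20 genes, 19 had a log2 fold change below 0, with a median of -0.50 against 0.004 over all tested genes. None of them was called (lowest adjusted p 0.659, edgeR), and their part in the Asns values was not tested. In sorted bulk cells, fewer cells that express a gene and less RNA per cell cannot be told apart.

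Asns (Entrez 27053) lies on the minus strand of chromosome 6, at positions 7675165 to 7693209 of mm10. Its promoter is shown because it is the textbook example of an amino acid response element. The 250 bases before the RefSeq start (GRCm38.p6, chr6:7693210-7693459, minus strand) are given below 5′ to 3′. Capitals mark the letters TGATGNAA, the core of the C/EBP-ATF composite site that ATF4 binds, which end 15 bases before the start.
Asns: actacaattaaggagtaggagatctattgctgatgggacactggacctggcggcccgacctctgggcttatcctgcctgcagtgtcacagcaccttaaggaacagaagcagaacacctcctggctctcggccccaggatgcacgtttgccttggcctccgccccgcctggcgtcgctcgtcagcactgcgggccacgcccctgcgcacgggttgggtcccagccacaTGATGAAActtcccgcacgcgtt

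The same letters or the related TGNNGCAA, searched on both strands in the 250 bases before each RefSeq start, were set beside those of other ATF4 targets. The search letters overlap, so a site can fit both, as the Chac1 match below does. TGATGNAA occurred in 2 of the 12 windows of the 10 genes, those of Asns and Chac1, and in 3.45% of all 32851 promoter windows. TGNNGCAA occurred in 5 of the 12, those of Atf5, Chac1, Psat1, Sesn2 and Trib3, and in 9.59% of all windows. Chac1 held 3 matches, of which the one that fits both is shown. The stretches below give it with the matches in Trib3 (chr2:152344070-152344109, minus strand) and Psat1 (chr19:15925172-15925211, minus strand), the Chac1 stretch being chr2:119351033-119351072 (plus strand, match on the opposite strand), with the match in capitals.
Trib3: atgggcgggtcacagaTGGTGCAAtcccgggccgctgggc
Psat1: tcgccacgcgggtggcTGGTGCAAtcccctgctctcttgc
Chac1: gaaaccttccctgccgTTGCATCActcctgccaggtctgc
Trib3 and Psat1 share the same match, TGGTGCAA, which ends 25 bases before the start of Trib3 and 128 bases before that of Psat1. Their levels across the 6 libraries did not move together: cKO1 was the second highest for Trib3 and the lowest for Psat1. A match describes letters only, and binding was not measured.

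The 3 serine synthesis enzymes had small fitted differences. Phgdh, which commits the glycolytic intermediate phosphoglycerate to serine, stood at 76.9, 90.9 and 83.8 CPM in the cKO libraries, against 91.9, 77.2 and 84.4 CPM in the WT libraries. The ranges nearly coincided, and the fitted fold change of 0.993 had a 95% interval of 0.849 to 1.16 (adjusted p = 0.996, edgeR), the narrowest of the 9 genes. Phgdh was lowest in cKO1 and WT2, the pair that scored highest on the first component. Psat1, the aminotransferase of the next step, stood at 30.2, 42.1 and 37.9 CPM in the cKO libraries, against 46.3, 41.4 and 41.5 CPM in the WT libraries. Only cKO2 lay within the WT range and the other cKO libraries lay below it (log2 fold change -0.23 ± 0.13 SE, 95% interval -0.53 to 0.07, adjusted p = 0.787, edgeR). Without cKO replicate 1, the Psat1 log2 fold change was -0.10. Psph, the phosphatase that releases serine, stood at 15.1, 14.0 and 14.4 CPM in the cKO libraries, against 12.4, 16.6 and 13.6 CPM in the WT libraries. The cKO values lay inside the WT range, with a fitted fold change of 1.02 (95% interval 0.829 to 1.26, adjusted p = 0.99, edgeR). Phgdh and Psph had estimated counts that were not whole in 4 and 5 of the 6 libraries, and Psph overlaps Cct6a in RefSeq.

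**Figure D3:**
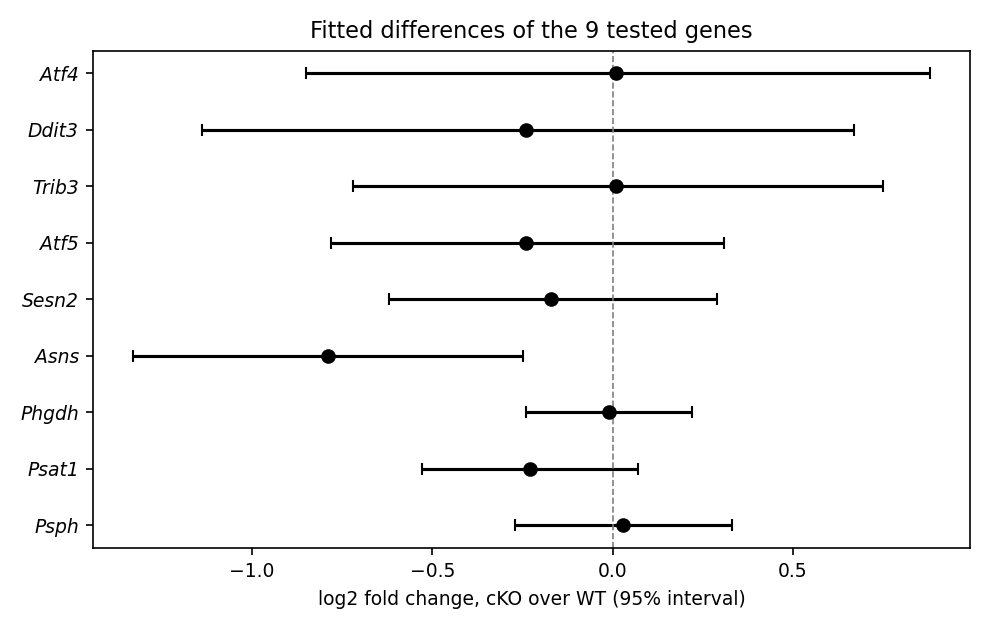
Fitted log2 fold change of cKO over WT (points) with its 95% interval (bars) for the 9 tested genes, from edgeR's quasi-likelihood fit. The interval of Asns lies below 0 before adjustment over all genes, those of the other 8 genes include 0, and those of Phgdh, Psat1 and Psph are the narrowest.

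Per gene length, the levels spanned a wide range. Mean FPKM over the 6 libraries was 289 for Atf4, 45.1 for Phgdh, 29.8 for Ddit3, 18.3 for Psat1, 9.33 for Psph, 4.65 for Asns, 3.67 for Sesn2, 3.42 for Atf5, 1.36 for Trib3 and 0.0133 for Chac1. Atf4 at 192 to 448 FPKM lay above Phgdh at 40.0 to 50.1 FPKM in all libraries. The ranges of Phgdh and Ddit3 overlapped, as did those of Ddit3 and Psat1, of Asns and Sesn2, and of Sesn2 and Atf5. Ddit3 nevertheless lay above Psat1 in every library. Among the serine synthesis enzymes, Phgdh lay above Psat1 and Psat1 above Psph in every library. Asns had the widest spread of FPKM over the libraries among the detected genes, 2.68-fold, followed by Ddit3 at 2.55-fold and Atf4 at 2.33-fold, against 1.25-fold for Phgdh and 1.26-fold for Psph.

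The rest of the pathway was read from 7 gene lists, chosen with earlier results of these data known. Of their 94 tested genes, 1 was called by edgeR, DESeq2 and limma-voom alike, the transporter gene Slc7a10, lower in cKO. In the whole table, edgeR called 0.202% of tested genes lower and 0.00776% higher in cKO. At an unadjusted p under 0.05, 4 of the 94 passed in edgeR's test (4.26%, against 7.69% of all tested genes): Ndrg1, Nprl2, Tyms and Slc7a10. Of the 9 eIF2alpha kinases, their regulators and phosphatase subunits, none was called (median log2 fold change 0.02). Eif2ak4, which encodes GCN2, stood at 23.1, 21.8 and 23.3 CPM in cKO, against 23.3, 24.3 and 23.4 CPM in WT (log2 fold change -0.06, adjusted p = 0.946, edgeR). The log2 fold change of its activator Gcn1 was 0.24 ± 0.11 (SE; adjusted p = 0.717), its inhibitor Impact -0.28 and the substrate Eif2s1 -0.05. Without WT2 and cKO1 together, Impact was at 0.02 and Gcn1 at 0.09. Without WT2 alone, Gcn1 was at 0.13.

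Of the 14 tested factors and targets of the ATF4 pathway, none was called (median -0.02). The lowest p belonged to Ndrg1 with a log2 fold change of 0.32, Nfil3 with -0.78, Atf3 with -1.18 and Cebpb with -0.39, all with adjusted p-values of at least 0.499 in edgeR's test. Atf3, a stress-induced partner of ATF4, stood at 5.06, 4.47 and 1.11 CPM in cKO, against 5.16, 14.4 and 4.67 CPM in WT, so that its difference rested on a high WT2 and a low cKO3. Of the 10 sestrin paralogs and amino acid sensors, none was called (median 0.07), and Nprl2, a subunit of the GATOR1 complex that restrains mTORC1, came first by p, with an adjusted p of 0.466 (log2 fold change 0.25). The others with the lowest p were Mios, Castor2 and Wdr24, with log2 fold changes of 0.18, 0.20 and 0.14.

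The 20 cytosolic aminoacyl-tRNA synthetases, which load amino acids onto tRNA and of which ATF4 raises many, stayed within a narrow range. Their log2 fold changes ran from -0.06 to 0.16 with a median of 0.04, and none was called. Cars, Wars, Hars and Kars had the lowest p (0.11, 0.16, 0.10 and 0.11 on the log2 scale, lowest adjusted p 0.839, edgeR). Of the 17 tested genes of serine and glycine use and the folate cycle, none was called (median 0.11). Tyms, thymidylate synthase, came first by p, with -0.37 ± 0.10 on the log2 scale (SE; adjusted p = 0.304, edgeR), and Mtr and Amt stood at 0.13 and 0.57. Shmt2, the mitochondrial enzyme that splits serine for one-carbon units, stood at 76.6, 96.7 and 96.0 CPM in cKO, against 86.1, 68.3 and 85.4 CPM in WT. Of the 14 tested enzymes of asparagine, aspartate, glutamine and proline, none was called (median 0.03). The cytosolic aspartate aminotransferase Got1 came first by p, at -0.52 ± 0.25 on the log2 scale (SE; adjusted p = 0.719, edgeR), and was highest in WT2. Glud1 followed with a log2 fold change of 0.11.

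The last list held 10 tested amino acid transporters, listed for links to ATF4 that were not tested here. Among them, 1 was called lower and none higher, against 0.202% and 0.00776% of all tested genes (median log2 fold change -0.09). Because this list too was chosen with earlier results of these data known, these shares do not measure an enrichment. Slc7a10, a carrier of small neutral amino acids including serine, fell in cKO cells to 0.523, 1.09 and 0.613 CPM, against 4.88, 4.42 and 4.84 CPM in WT (log2 fold change -2.65 ± 0.31 SE, adjusted p = 0.0449, edgeR). The groups were far apart. When any single library was left out, the log2 fold change was -3.04 to -2.46, but the call was lost (adjusted p 0.0569 to 0.191). Without WT2 and cKO1 together it was -2.50 (adjusted p = 0.0617). Slc43a1, Slc38a1 and Slc7a1 had log2 fold changes of -0.28, -0.14 and 0.11 and were not called. Slc38a2, the ATF4-responsive carrier of neutral amino acids, stood at 574, 462 and 302 CPM in cKO, against 292, 744 and 294 CPM in WT (adjusted p = 0.9997, edgeR), with WT2, cKO1 and cKO2 again high. Slc7a11, the cystine carrier, had at most 0.222 CPM in any library and was not tested.

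**Figure D4:**
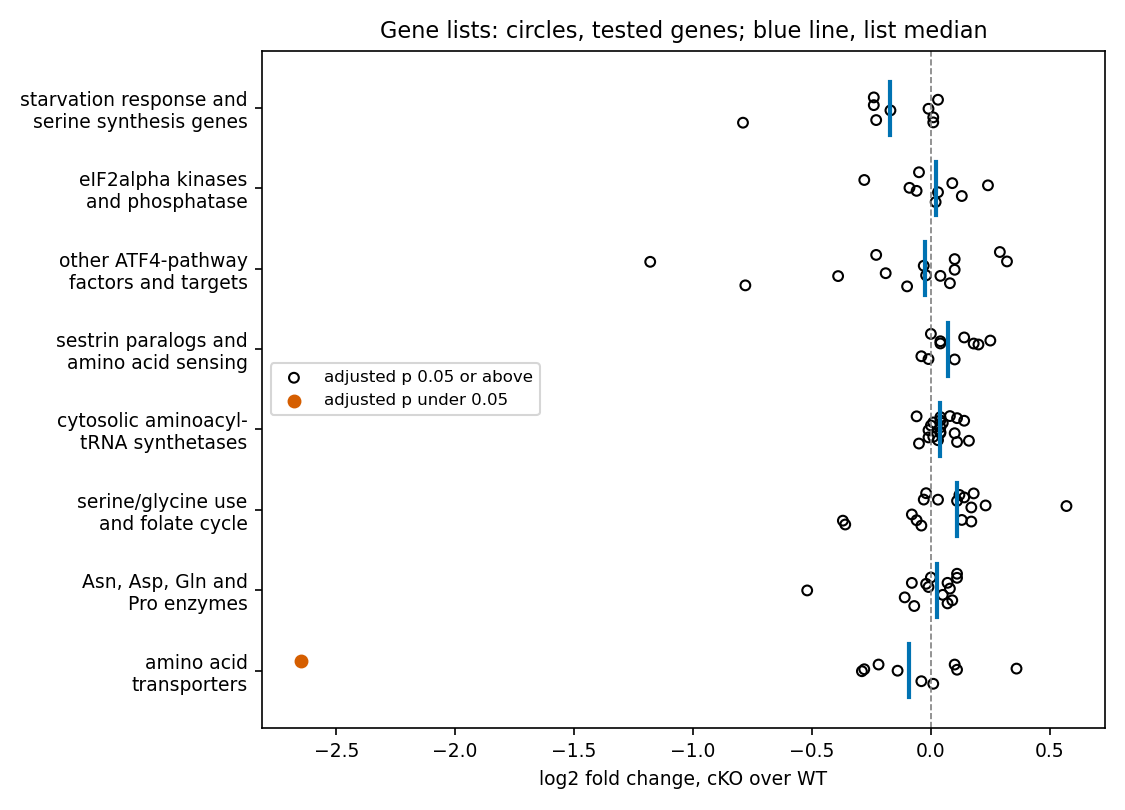
Log2 fold change of cKO over WT for each tested gene (circles) in the 10-gene set and the 7 pathway lists, with the list median as a blue line and genes at an adjusted p under 0.05 filled in orange. The only filled circle is Slc7a10 at -2.65, the aminoacyl-tRNA synthetases lie within -0.06 to 0.16, and Asns at -0.79 is the lowest of the 10-gene set.

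The genes whose profile over the 6 libraries was most like that of Asns were Myo3b, Susd2 and Gpm6b. Likeness was the root mean square difference of centred log2 CPM over the 6 libraries, which was 0.177 for Myo3b, 0.184 for Susd2 and 0.185 for Gpm6b, against a median of 0.495 over 9932 genes compared. Myo3b, an unconventional myosin, stood at 11.6, 12.2 and 13.7 CPM in cKO, against 20.8, 19.4 and 23.6 CPM in WT (log2 fold change -0.77 ± 0.12 SE, adjusted p = 0.0595, edgeR). Susd2 and Gpm6b, which both encode membrane proteins, had log2 fold changes of -0.78 ± 0.20 and -0.59 ± 0.14 (SE). None of the 3 was called by edgeR. They were picked by their likeness to Asns, so their lower levels in cKO follow from that choice. A gene without any variation would differ from Asns by 0.474, close to the median of 0.495.

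Summed levels of markers of other cell types were low beside those of the Treg markers, and the sums of each list overlapped between the groups. B cell markers summed to 18.5 to 39.8 CPM in cKO and 23.0 to 25.2 CPM in WT, and myeloid markers to 72.7 to 132 CPM in cKO and 68.1 to 98.7 CPM in WT. Plasma cell markers summed to 121 to 158 CPM in cKO and 135 to 194 CPM in WT. CD8 T and NK cell markers summed to 34.9 to 42.0 CPM in cKO and 37.6 to 42.5 CPM in WT. Stromal and endothelial markers summed to 15.6 to 20.3 CPM in cKO and 2.99 to 19.4 CPM in WT. Erythroid markers reached 199 CPM in cKO1 and at most 5.8 CPM elsewhere. For 6 single markers of these lists the groups did not overlap, and none of the 6 was called. The lists held 7 tested B cell, 4 plasma cell, 8 myeloid, 3 erythroid, 5 CD8 T and NK cell and 3 stromal and endothelial markers. Of all tested genes, 8.12% had every cKO library below every WT library and 6.1% had them above, so such markers are not rare. Bank1 and Cd79a of B cells and Jchain of plasma cells were higher in every cKO library than in any WT library, with log2 fold changes of 0.92, 0.95 and 1.33. Cd22 of B cells was lower, at -0.67. Prdm1, which is also active in Treg cells, stood at 16, 14.5 and 14.1 CPM in cKO, against 32.7, 19.9 and 30.7 CPM in WT (log2 fold change -0.90 ± 0.19 SE, adjusted p = 0.165, edgeR). Nkg7 of cytotoxic cells stood at 9.83, 14.1 and 11.2 CPM in cKO, against 21.4, 15.5 and 18.6 CPM in WT (-0.66 ± 0.17 on the log2 scale, SE; adjusted p = 0.304, edgeR). Over the 7 tested B cell markers the median on the log2 scale was 0.92. Medians of the other lists were 0.34 (myeloid), 1.14 (stromal and endothelial), 0.23 (CD8 T and NK), -0.04 (plasma cell) and 4.72 (erythroid, high in cKO1). The part of these markers in the levels of the 10 genes was not tested. The most abundant plasma cell marker, Xbp1, is also expressed by T cells, and no marker of any list was at 0 in all libraries. Among 11 heat shock and immediate early genes, none was called, and Fosb came first by p at -1.10 on the log2 scale (adjusted p = 0.356, edgeR). Hspa1a stood at 5.35, 26.4 and 136 CPM in cKO, against 163, 12.7 and 125 CPM in WT, low in the same 3 libraries where Atf4, Ddit3 and Trib3 were high.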

How the data were processed

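The authors deposited estimated counts per gene and library, not normalized, of which 45.4% to 46.3% per library were not whole to within 0.01. They also deposited values that behave as FPKM, normalized per length and depth by the authors, as judged from the values, and group means that were not used. Per the submitters' processing notes, the tools included DESeq2 1.16.1, featureCounts 1.5.0-p3 and HISAT2 2.0.5 on mm10, without their roles. The sources used here do not say whether counting used strand. Of 18493 genes, 956 had a BGI identifier without a name, and 17412 Entrez identifiers matched RefSeq of GRCm38.p6 (mm10). Groups and replicate numbers came from the sample titles.

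Estimated counts were rounded. In R 4.3.3 with edgeR 4.0.16, genes passing filterByExpr (minimum count 10) were scaled by TMM and tested with the quasi-likelihood F test with group as the only term, Benjamini-Hochberg adjusted over 12887 genes and called at an adjusted p under 0.05, two-sided. SE values came from the F statistic, and 95% intervals from the SE and the fitted degrees of freedom. The common biological coefficient of variation was 16.7%. The code was tested on simulated counts. An exact permutation test of 3 against 3 cannot go below p = 0.1. Alternatives were DESeq2 1.42.0, limma-voom (limma 3.58.1), other scaling, other filters (none, or 3 or more libraries at 1 CPM or above), robust empirical Bayes, the replicate number as a block, and libraries left out. Named genes were the 10 genes, Tkt, up to 4 genes with the lowest p of each pathway list, and the 3 genes most like Asns with a mean of at least 5 CPM; a few of these are not reported here. Other genes (Ppp1r15a, Tnfaip3, Shmt2, Slc38a2, Slc7a11, Hspa1a, Xbp1 and the single markers of other cell types) were chosen after their values were seen. The 10 genes and the lists were chosen with earlier results of these data known. Promoter sequences are from RefSeq, and all 10 genes had a window.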

Additional observations from a re-analysis of the deposited data

How the results depend on the processing

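None of the 9 tested genes was called in any of the 15 alternatives. Chac1 was in the fit in 2 of these, DESeq2, which gave it no adjusted p, and no low-count filter, where it was not called. Over all genes, the count of called genes was 27 in the reported fit, 173 with DESeq2, 43 with no low-count filter, 48 with robust empirical Bayes and 71 without WT2 and cKO1 together. It ranged from 0 to 30 when 1 library was left out, with 681 to 909 genes at an unadjusted p under 0.05 where none was called. With the replicate number as a block it was 0 (811 genes at an unadjusted p under 0.05). Same-numbered libraries deviated from their group means with correlations of -0.28, 0.06 and 0.26. The sample titles do not say whether the numbers pair animals, and correlations from 3 libraries per group cannot settle it. Asns stood at -0.80 with the block (adjusted p = 0.292, edgeR). Of 735 pairs of a named gene and an alternative, 704 kept direction and side of the threshold. Leaving out 1 library gave log2 fold changes of -0.20 to 0.51 for Atf4, -0.48 to 0.32 for Ddit3, -0.14 to 0.31 for Trib3, -0.08 to 0.06 for Phgdh, -0.05 to 0.16 for Psph and -0.47 to 0.11 for Impact. Without WT2 and cKO1, Ddit3 was at 0.11, Impact at 0.02 and Castor2 at -0.05. The causes were not tested. Slc7a10 stood at -2.69 with the block but was not called (adjusted p = 0.189). Tkt was called in 6 of 15 alternatives, and Myo3b in 1, DESeq2 (adjusted p = 6.1e-04). Trib3 and Asns rest on 36 to 64 and 93 to 247 reads per library, so counting error limits both.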
